A study of Mus musculus with 6 samples.

Results

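The circadian clock genes were studied in cultured embryonic mouse kidneys. They are the 10 genes Per1, Per2, Per3, Cry1, Cry2, Arntl, Clock, Dbp, Tef and Hlf, represented by every probe, other than control probes, whose gene name in the array files equals one of these symbols. This gave 19 probes of 41174, and 10 gene names of 27962. Kidneys dissected from CD1 mouse embryos at E13.5 were cultured on filters and received Scriptaid (2.0 µg/ml) or Nullscript (2.0 µg/ml) over 6 hours. Scriptaid inhibits histone deacetylases, and Nullscript, a related compound, served as the inactive control drug. RNA of both drugs was hybridised together, in opposite dyes, on 2-colour Agilent arrays. There were 3 biological replicates with 2 arrays each, and the dyes were exchanged between the 2 arrays of a replicate. No genetic change is named for any kidney, paired kidneys received the different drugs, and neither the number of embryos in a replicate nor the time of day of dissection is given in the sources used here. The p-values below rest on the spread between these 3 replicates, where limma draws the variance of each probe towards that of all tested probes.

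The molecular clock is a feedback loop of transcription that runs with a period of about a day in most adult tissues, the kidney included. ARNTL (also called BMAL1) and CLOCK form a heterodimer that binds E-box sequences and activates the Per and Cry genes, and the PER and CRY proteins in turn block that heterodimer. The nuclear receptors of the Nr1d and Ror families link a further loop to Arntl, and DBP, TEF and HLF are related leucine zipper proteins that carry clock output to genes with D-box sequences.

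The direction of every value depends on the dye fields of the labels. H1f0, Gsn, Cdkn1a and Txnip are known from other cells to rise with inhibitors of this kind. By their brightest probes, their log2 ratios, Scriptaid-labelled over Nullscript-labelled channel, lay between -1.04 (Gsn) and -0.91 (Cdkn1a), so all 4 were higher with the Nullscript label. Ccnd1 and Myc, known to fall with these inhibitors, had 1.90 ± 0.19 and 1.71 ± 0.28 (SD, n = 3). These 6 genes were chosen with earlier results of these data known, so they are no independent check of the labels. They go against the labels, so the text speaks of the Scriptaid-labelled and the Nullscript-labelled channel. Exchanging the drug names would turn each sign. The array titles also name the drugs in the order opposite to Cy5 over Cy3, while the deposited ratios follow the dye fields, as is done here. In the series description only 4 arrays are mentioned, 2 of them swapped, whereas the 6 arrays here hold 3 in each orientation.

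All 19 probes were well above background in both channels of all 6 arrays, and none had a saturated spot or an outlier mark. Between 91.5% and 96.5% of the spots of a channel were well above background. Log2 ratios of the 2 arrays of a replicate correlated at 0.75 to 0.86 across probes, which are not independent replicates. Correlations were closer, at 0.87 to 0.94, between arrays that shared a dye orientation but not a replicate. Between arrays that shared neither they were 0.73 to 0.83. All 9 markers of embryonic kidney looked at (Pax2, Six2, Wt1, Gdnf, Ret, Hoxb7, Foxd1, Wnt11 and Lhx1) were above background on every array. The number of replicates limits the precision of each value.

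The clock motifs in the promoters of the members are shown here because ARNTL and CLOCK act through E-boxes and DBP, TEF and HLF through D-boxes. Elements for proteins that are not members, such as the ROR and NR1D receptors, were searched as well. RefSeq windows (build GRCm38.p6), from 250 bases before to 50 bases after an annotated start, were matched by symbol for 9 of the 10 genes, in 14 windows. Per2 had no entry. The motifs searched on both strands were the E-box CACGTG, the E'-box CACGTT, the D-box as TTATGTAA or TTACGTAA, the binding element of ROR and NR1D receptors (RORE) as TAGGTCA or TGGGTCA, and the cyclic AMP response element (CRE) TGACGTCA. Matches are in capitals, on the strand of the gene, where a match on the opposite strand reads as its reverse complement. No matches overlapped.
Cry2 (chr2:92434020-92434319, minus strand, E'-box): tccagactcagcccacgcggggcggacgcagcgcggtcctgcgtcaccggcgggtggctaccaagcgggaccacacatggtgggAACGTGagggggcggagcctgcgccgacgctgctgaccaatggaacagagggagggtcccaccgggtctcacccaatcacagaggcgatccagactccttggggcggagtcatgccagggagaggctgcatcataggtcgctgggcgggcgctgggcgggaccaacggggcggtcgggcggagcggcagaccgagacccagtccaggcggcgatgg
Cry1 (chr10:85185005-85185304, minus strand, E'-box then E-box): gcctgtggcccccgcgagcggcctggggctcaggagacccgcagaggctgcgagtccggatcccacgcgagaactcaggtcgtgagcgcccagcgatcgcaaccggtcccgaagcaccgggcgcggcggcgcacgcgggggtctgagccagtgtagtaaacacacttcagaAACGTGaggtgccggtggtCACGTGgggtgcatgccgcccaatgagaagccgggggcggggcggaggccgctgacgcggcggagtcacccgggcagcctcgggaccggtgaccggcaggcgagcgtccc
Per1 (chr11:69098699-69098998, plus strand, E-box): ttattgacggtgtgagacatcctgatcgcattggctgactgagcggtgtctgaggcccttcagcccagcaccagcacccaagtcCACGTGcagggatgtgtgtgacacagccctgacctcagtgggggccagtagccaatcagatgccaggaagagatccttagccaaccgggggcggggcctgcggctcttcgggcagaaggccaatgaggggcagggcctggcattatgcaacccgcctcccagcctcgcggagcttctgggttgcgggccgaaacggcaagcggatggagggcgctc
Per3 (chr4:151044616-151044915, minus strand, D-box at both matches): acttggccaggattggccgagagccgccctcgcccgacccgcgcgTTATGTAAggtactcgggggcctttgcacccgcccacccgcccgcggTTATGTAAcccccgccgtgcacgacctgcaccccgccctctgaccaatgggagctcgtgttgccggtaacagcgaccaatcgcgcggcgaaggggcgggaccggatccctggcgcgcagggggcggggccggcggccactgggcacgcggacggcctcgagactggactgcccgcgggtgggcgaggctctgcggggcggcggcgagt
Arntl (chr7:113207261-113207560, plus strand, RORE): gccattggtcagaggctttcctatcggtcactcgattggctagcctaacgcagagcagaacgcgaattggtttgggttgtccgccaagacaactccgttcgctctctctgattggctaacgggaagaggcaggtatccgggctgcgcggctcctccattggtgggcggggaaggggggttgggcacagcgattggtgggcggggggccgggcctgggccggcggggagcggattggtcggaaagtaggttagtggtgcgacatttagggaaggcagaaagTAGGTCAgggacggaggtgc
Hlf (chr11:90390868-90391167, minus strand, CRE): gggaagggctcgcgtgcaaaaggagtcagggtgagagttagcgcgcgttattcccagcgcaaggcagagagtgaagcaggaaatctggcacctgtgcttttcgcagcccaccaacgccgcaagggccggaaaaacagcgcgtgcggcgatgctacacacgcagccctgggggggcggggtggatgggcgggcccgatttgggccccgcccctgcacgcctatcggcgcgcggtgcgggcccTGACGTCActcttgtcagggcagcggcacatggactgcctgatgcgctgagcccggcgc
Counting to the first base of the match, the E-box of Cry1 lies 60 bases before the start and its E'-box 79 bases before it. The Per1 E-box and the Cry2 E'-box each lie 166 bases before their starts, and the D-box matches of Per3 lie 205 and 158 bases before its start. The Arntl RORE lies 30 bases after the start and the Hlf CRE 9 bases before it. Each of the 2 Tef windows holds an E-box, 127 and 138 bases before the start. The windows of Clock and Dbp, the second window of Per1 and the other window of Arntl hold no match, which says only that these letters are not in these windows. Of 32851 windows of all genes, 7.15% hold the E-box letters, 4.69% the E'-box, 1.06% the D-box, 6.45% the RORE and 1.79% the CRE.

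The comparison asks which clock genes differ between the histone deacetylase inhibitor and its inactive relative after 6 hours. Taking each gene by its brightest probe, 7 of the 10 genes passed the test at a limma adjusted p under 0.05. Cry2, Arntl, Hlf, Cry1, Per1 and Tef were higher in the Nullscript-labelled channel, and Dbp was higher in the Scriptaid-labelled channel. Per2, Per3 and Clock did not pass. Of all 26765 gene names tested by their brightest probe, 45.4% passed in either direction, 22.2% higher in the Scriptaid-labelled channel and 23.1% higher in the Nullscript-labelled channel. The median log2 ratio was -0.36 over the 10 genes and -0.01 over all gene names. Counted by probe, 9 of the 19 probes passed, 2 higher in the Scriptaid-labelled channel and 7 higher in the Nullscript-labelled channel. That share lies near the 45.2% of all 39392 probes tested that passed, 23.5% higher in the Scriptaid-labelled channel and 21.8% higher in the Nullscript-labelled channel. None of the 19 probes passed with an absolute log2 ratio of at least 1, against 2.63% of all probes. In these bulk samples, fewer cells of a type and less RNA per cell cannot be told apart. With the drug names exchanged, the gene counts would be 6 higher and 1 lower with Scriptaid.

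**Figure D1:**
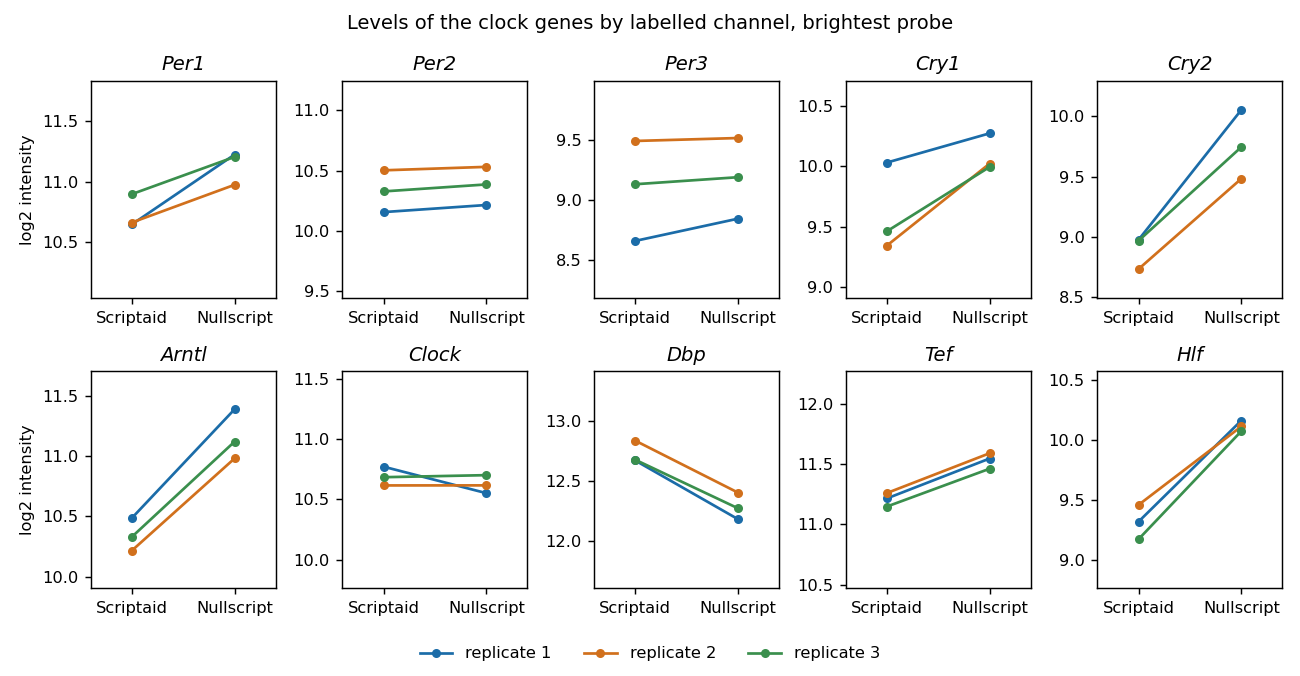
Normalised log2 intensity (vertical axes, panels with their own position but the same span) of each clock gene by its brightest probe in the Scriptaid-labelled channel (left) and the Nullscript-labelled channel (right), where each line is 1 of the 3 replicates and each point the mean of its 2 arrays. Lines climb towards Nullscript for Per1, Cry1, Cry2, Arntl, Tef and Hlf in all 3 replicates and descend for Dbp, while Per2 is nearly flat and Per3 and Clock slope mainly in replicate 1.

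**Figure D2:**
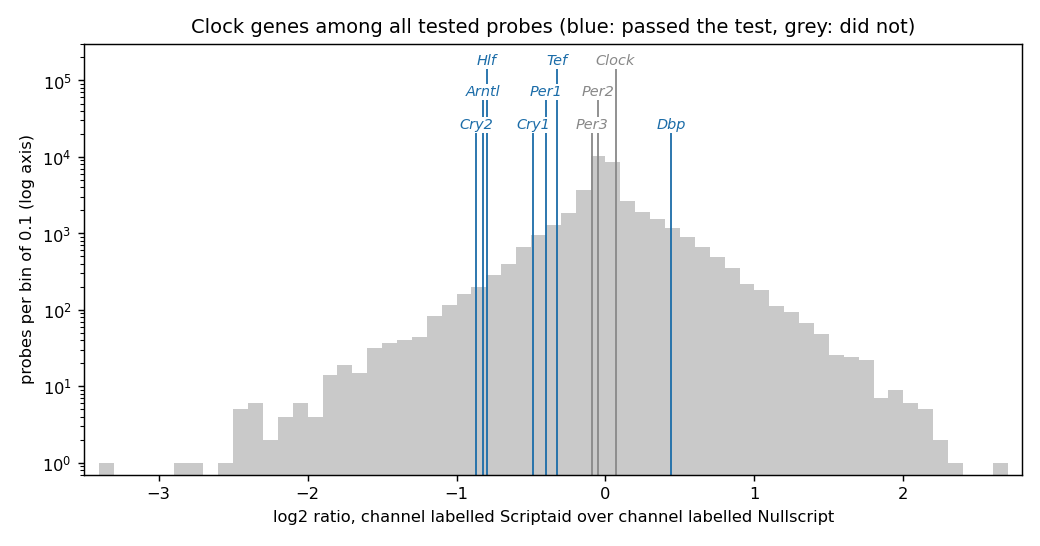
Number of probes (vertical log axis) by log2 ratio in bins of 0.1 (horizontal axis) for all 39392 tested probes, with the brightest probe of each clock gene as a line, blue where it passed the test and grey where it did not. Cry2, Arntl and Hlf sit on the left slope between -0.87 and -0.80, and Dbp stands alone on the right at 0.44.

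Among the repressors of the loop, Cry2 had the lowest ratio of all 10 genes. Cry2 encodes a cryptochrome, a partner of the PER proteins in blocking CLOCK and ARNTL. Its log2 intensity was 8.98, 8.73 and 8.97 in the Scriptaid-labelled channel in replicates 1, 2 and 3, and 10.05, 9.48 and 9.75 in the Nullscript-labelled channel. The groups did not overlap, and the ratio was negative on all 6 arrays. The log2 ratio was -0.87 ± 0.18 (SD, n = 3; limma adjusted p = 0.000864), which is 1.83-fold higher in the Nullscript-labelled channel. The second Cry2 probe, dim at mean intensities of 6.91 in the Scriptaid-labelled channel and 6.96 in the Nullscript-labelled channel, had -0.05 and did not pass (limma adjusted p = 0.297). The difference between these 2 probes was larger than the spread between replicates, at -0.81 ± 0.19 (brightest minus the other, n = 3). Averaged over both probes, Cry2 had -0.46 and still passed.

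Cry1, the other cryptochrome gene, went the same way with more spread. Its log2 intensity was 10.03, 9.34 and 9.46 in the Scriptaid-labelled channel, against 10.27, 10.02 and 9.99 in the Nullscript-labelled channel. The groups overlapped through replicate 1, in which the Scriptaid value lay above the Nullscript values of replicates 2 and 3, while within each replicate the ratio was negative. The log2 ratio was -0.49 ± 0.22 (SD, n = 3; limma adjusted p = 0.00944). Without replicate 3 the ratio was -0.46, close to that of all 3 replicates, but the call was lost (limma adjusted p = 0.0673). The second Cry1 probe had -0.16 ± 0.17 and did not pass (limma adjusted p = 0.136), and the mean of both probes was -0.32. Within replicates, the 2 probes differed by -0.57 to 0.03.

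Per1, the period gene known to respond quickly to stimuli, had log2 intensities of 10.64, 10.66 and 10.90 in the Scriptaid-labelled channel and of 11.23, 10.97 and 11.21 in the Nullscript-labelled channel. The groups did not overlap. The log2 ratio was -0.40 ± 0.16 (SD, n = 3; limma adjusted p = 0.00641). In the orientation with Scriptaid in Cy3 it was -0.27 and no longer passed (limma adjusted p = 0.0590), and with Scriptaid in Cy5 it was -0.54.

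Per2, the second period gene, gave different answers by its 2 probes, both listed under the same transcript accession. The brightest had log2 intensities of 10.16, 10.50 and 10.33 in the Scriptaid-labelled channel and of 10.21, 10.53 and 10.39 in the Nullscript-labelled channel. These values lay almost on top of each other, and the ratio of -0.05 ± 0.02 did not pass (limma adjusted p = 0.244, 95% interval -0.12 to 0.03). The dimmer probe had 8.22, 8.12 and 7.94 in the Scriptaid-labelled channel, against 9.001, 8.66 and 8.57 in the Nullscript-labelled channel, with no overlap. Its log2 ratio was -0.65 ± 0.12 (SD, n = 3; limma adjusted p = 0.000747). The probes differed by 0.51 to 0.72 in the 3 replicates, more than the spread between them, and with the mean of both probes Per2 passed at -0.35 (limma adjusted p = 0.00102). Where the probes lie in the transcript was not analysed here.

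Per3 had log2 intensities of 8.66, 9.49 and 9.13 in the Scriptaid-labelled channel and of 8.84, 9.51 and 9.19 in the Nullscript-labelled channel. Its level varied more between replicates than between drugs. The ratio of -0.09 ± 0.08 did not pass (limma adjusted p = 0.157, 95% interval -0.20 to 0.02). By their brightest probes the 3 period genes had 1 call and the 2 cryptochromes had 2, where 45.4% of all gene names passed. This contrast hangs on the choice of probe, since the other Per2 probe passed and the second probes of Cry1 and Cry2 did not.

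**Figure D3:**
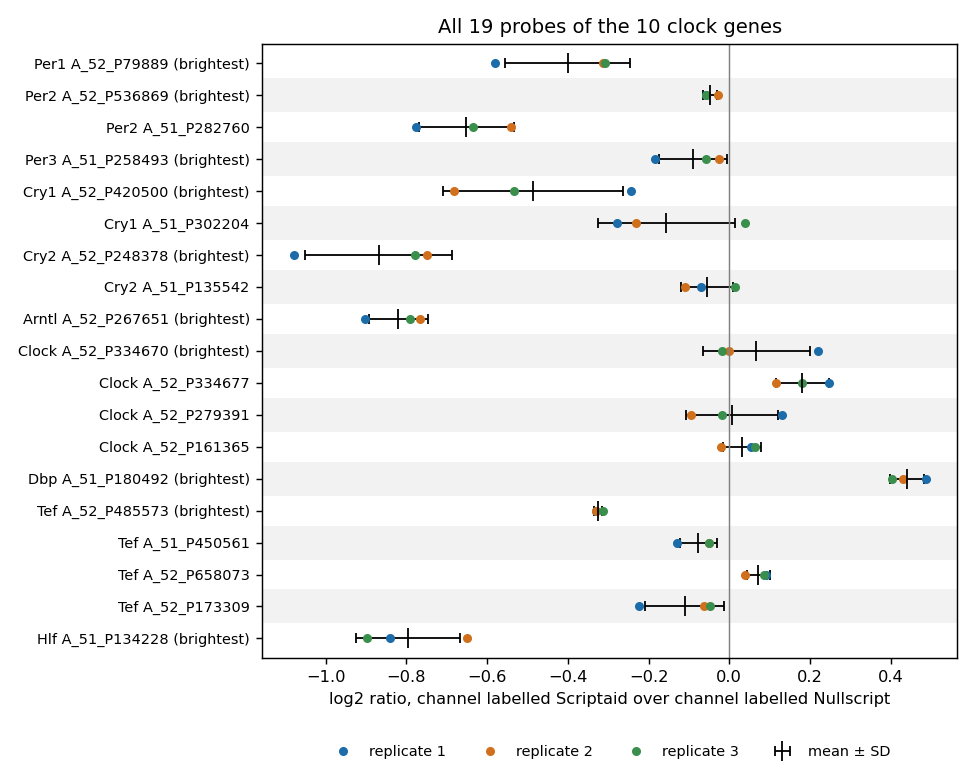
Log2 ratio of the Scriptaid-labelled channel over the Nullscript-labelled channel (horizontal axis) for all 19 probes (rows), with coloured points for the 3 replicates and a bar for mean ± SD. The brightest probe of a gene comes first within its gene, and the probes of Per2, Cry2 and Tef spread apart by more than their replicates do.

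The activators did not move together. Arntl, which encodes the BMAL1 protein, had log2 intensities of 10.48, 10.21 and 10.33 in the Scriptaid-labelled channel and of 11.39, 10.98 and 11.12 in the Nullscript-labelled channel. The groups did not overlap. The log2 ratio was -0.82 ± 0.07 (SD, n = 3; limma adjusted p = 0.000252), or 1.77-fold higher in the Nullscript-labelled channel, and the single arrays ran from -0.91 to -0.74. Its smallest spread among the 3 genes with the lowest ratios gave a 95% interval of -0.92 to -0.72.

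Clock, the gene of its partner protein, had log2 intensities of 10.77, 10.62 and 10.68 by its brightest probe in the Scriptaid-labelled channel, and of 10.55, 10.62 and 10.70 in the Nullscript-labelled channel. The groups overlapped, and the ratio of 0.07 ± 0.13 did not pass (limma adjusted p = 0.404, 95% interval -0.08 to 0.21). Of the other 3 Clock probes, A_52_P334677 passed at 0.18 ± 0.07 (limma adjusted p = 0.0147), and A_52_P279391 and A_52_P161365 did not, at 0.01 and 0.03. The call of A_52_P334677 was lost without replicate 3 (limma adjusted p = 0.0942) and with the slide as a term (limma adjusted p = 0.0598), with the ratio at 0.18 in both. Within replicates, the ratio of Arntl lay below that of Clock by 0.89 ± 0.20 on the log2 scale, a difference larger than the spread in all 3.

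The output genes split. Dbp, the D-box binding factor named for the albumin promoter, was the one member higher in the Scriptaid-labelled channel. Its log2 intensity was 12.67, 12.84 and 12.68 in the Scriptaid-labelled channel, against 12.18, 12.40 and 12.27 in the Nullscript-labelled channel, without overlap and with a positive ratio on all 6 arrays. The log2 ratio was 0.44 ± 0.04 (SD, n = 3; limma adjusted p = 0.000592), which is 1.36-fold.

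Hlf, a related factor first known from leukaemia, went the other way. Its log2 intensity was 9.32, 9.46 and 9.17 in the Scriptaid-labelled channel and 10.16, 10.11 and 10.07 in the Nullscript-labelled channel. The groups did not overlap, and the log2 ratio was -0.80 ± 0.13 (SD, n = 3; limma adjusted p = 0.000528), or 1.74-fold higher in the Nullscript-labelled channel. The lowest single array of any member by its brightest probe was an Hlf array, at -1.16.

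Tef, the third of these factors, had log2 intensities of 11.22, 11.26 and 11.15 by its brightest probe in the Scriptaid-labelled channel and of 11.55, 11.59 and 11.46 in the Nullscript-labelled channel. The replicates were close together, and the log2 ratio was -0.33 ± 0.01 (SD, n = 3; limma adjusted p = 0.000930). Its other 3 probes did not pass, with -0.08 by A_51_P450561, -0.11 by A_52_P173309 and 0.07 by A_52_P658073, which is listed under a cDNA clone. These probes were dimmer, at mean log2 intensities over both channels of 8.43, 6.68 and 7.53, against 11.37 for the brightest. The mean over all 4 Tef probes was -0.11, and it passed. The ratio of Dbp lay above that of Tef by 0.77 ± 0.05 and above that of Hlf by 1.24 ± 0.13, in each of the 3 replicates and by more than their spread.

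Ordered by ratio, the members ran Cry2 at -0.87, Arntl at -0.82, Hlf at -0.80, Cry1 at -0.49, Per1 at -0.40, Tef at -0.33, Per3 at -0.09, Per2 at -0.05, Clock at 0.07 and Dbp at 0.44. The 95% intervals of neighbours overlapped except between Tef and Per3 and between Clock and Dbp, and the differences between neighbours were not tested. Among the absolute ratios of all tested probes, Cry2 stood at the percentile 96.0 and Arntl at 95.3, while Per2 stood at 31.3.

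The dye orientations were compared as well. No member probe had a dye term that passed across the array (limma with the replicate as a block, lowest adjusted p = 0.0929), and 6 of 19 had an unadjusted p under 0.05. Across the array, 3.82% of probes passed for the dye term and 21.7% had an unadjusted p under 0.05. The largest difference between the orientations, 0.27 for Per1, is that given above. Replicates 1 and 2 lay on 1 slide with 1 scan and replicate 3 on another. With the slide as a term the same 7 members passed, and on the first slide alone 6 passed, all but Cry1.

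**Figure D4:**
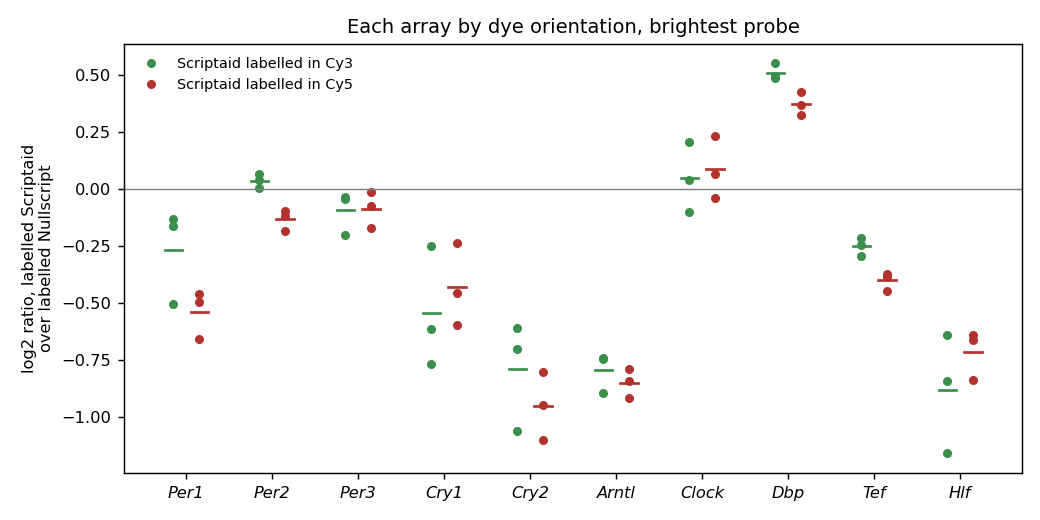
Log2 ratio of the Scriptaid-labelled channel over the Nullscript-labelled channel (vertical axis) on each of the 6 arrays, by the brightest probe of each clock gene. Green points are the 3 arrays with Scriptaid in Cy3 and red points the 3 with Scriptaid in Cy5, with short lines for their means. Per2 lies above 0 in one orientation and below 0 in the other, and Per1 shows the widest gap between the means.

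Further clock genes were taken from a list of 28 regulators and partners. By their brightest probes 12 were higher in the Scriptaid-labelled channel, 7 were higher in the Nullscript-labelled channel and 9 did not pass, with a median log2 ratio of 0.01. These counts stand beside the 45.4% of all gene names that passed. Without replicate 3 they were 7 and 4. For Fbxw11 the brighter probe could not be tested, because its spots carried outlier marks.

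Among the transcriptional regulators on that list, Bhlhe40, a repressor that competes for E-boxes, had a log2 ratio of 0.83 ± 0.03 (SD, n = 3; limma adjusted p = 0.000207), and its relative Bhlhe41 had -0.00 and did not pass. Ciart, another repressor of CLOCK and ARNTL, had -0.61 ± 0.21. Nfil3, which binds D-boxes and opposes DBP, TEF and HLF, had -0.42 ± 0.08 and -0.34 by its other probe. Of the receptors that act on the Arntl promoter, Nr1d1 passed at -0.20 ± 0.06 (-0.10 and 0.01 by its other probes), Nr1d2 passed at 0.34 ± 0.10 and Rora, at -0.14 ± 0.19, did not (limma adjusted p = 0.190). Npas2, which can stand in for Clock, was at 0.03 and did not pass.

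Other genes of the list with named values act on clock proteins or link the clock to the cell cycle. Fbxl21, an F-box protein that acts on the stability of CRY proteins, had -1.43 ± 0.19 (SD, n = 3; limma adjusted p = 0.000315), the lowest ratio on the list, and -0.36 and -0.26 by its other probes. Sirt1, a deacetylase that interacts with CLOCK, had 0.52 ± 0.13 (0.63 by its other probe). The replication-linked gene Timeless had 0.72 ± 0.01 and the cell cycle kinase gene Wee1 had 0.51 ± 0.16.

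**Figure D5:**
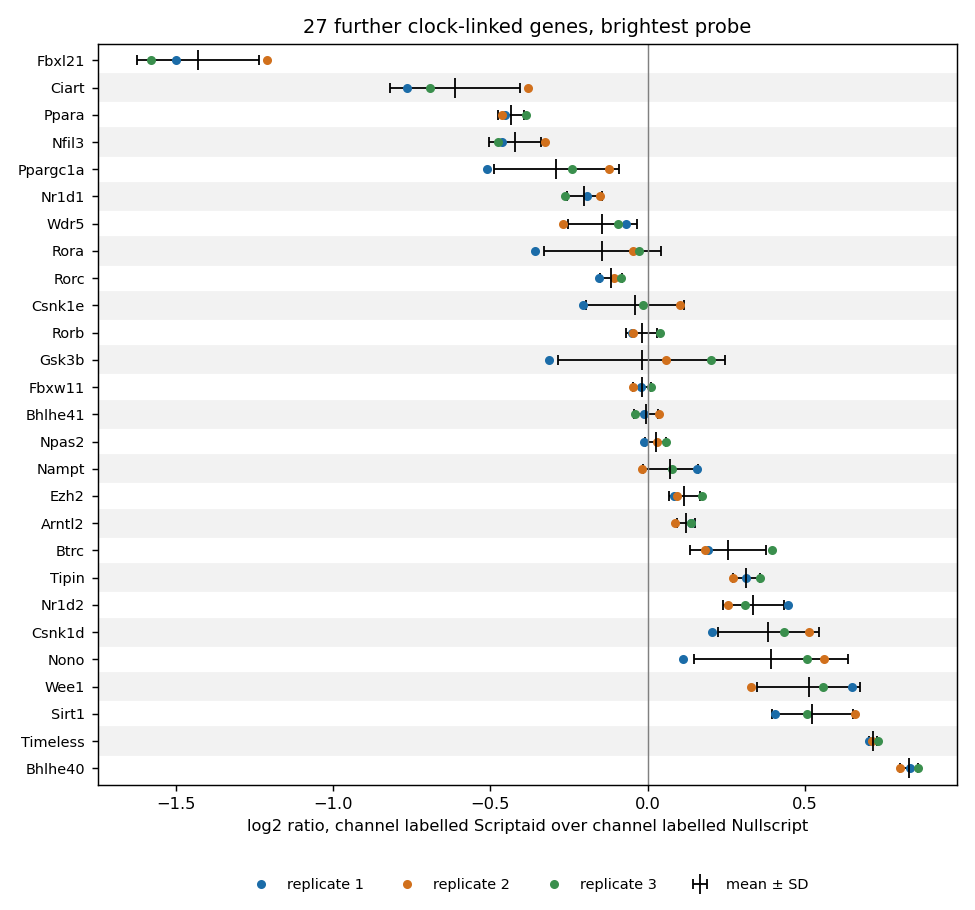
Log2 ratio of the Scriptaid-labelled channel over the Nullscript-labelled channel (horizontal axis) for 27 of the further clock-linked genes by their brightest probes (rows, lowest first), with points for the 3 replicates and a bar for mean ± SD. Fbxl21 lies far to the left at -1.43, and Bhlhe40 and Timeless lie farthest to the right.

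Markers of cell types in the explants were counted by their brightest probes. Of all gene names, 45.4% passed, 22.2% higher in the Scriptaid-labelled channel and 23.1% higher in the Nullscript-labelled channel. The marker lists are short, and none was tested as a set. Of 9 kidney markers 6 were higher in the Scriptaid-labelled channel and 0 in the other, and their summed linear intensity was 58972 to 63892 in the Scriptaid-labelled channel and 41986 to 44307 in the Nullscript-labelled channel. A linear sum gives most weight to bright genes such as Foxd1 (log2 ratio 0.56) and Wt1 (0.97), while Pax2, Ret and Wnt11 did not pass. Of 4 endothelial markers (Pecam1, Kdr, Cdh5 and Tek) 3 were higher in the Scriptaid-labelled channel, with sums of 9647 to 10051 in that channel and 6632 to 7259 in the Nullscript-labelled channel. Of 4 neuronal markers 1 was higher in the Scriptaid-labelled channel and 2 in the Nullscript-labelled channel, with sums of 4190 to 4643 in the Scriptaid-labelled channel and 3199 to 3511 in the Nullscript-labelled channel. That sum was carried by Elavl4, at a log2 ratio of 1.29 (0.71 by its other probe). Stmn2 had -1.16 (-0.19 by its other probe) and Tubb3 had -0.16. Without Elavl4, left out after its value was seen, the sums were 1576 to 1656 with the Scriptaid label and 2082 to 2320 with the Nullscript label, the opposite order. Of 5 macrophage markers 2 were higher in the Scriptaid-labelled channel and 1 in the other, with sums of 5639 to 6897 with the Scriptaid label and 4390 to 5842 with the Nullscript label. The 2 higher were Lyz2, at a log2 ratio of 0.89, and Ptprc, at 1.07 by its brightest probe and -0.11 to 0.15 by its others. Csf1r was lower at -0.14, and Adgre1 (0.06) and Cd68 (0.03) did not pass. Of 5 red blood cell markers 2 were higher in the Nullscript-labelled channel, with sums of 24543 to 42230 with the Scriptaid label and 30495 to 47236 with the Nullscript label. Of 3 adrenal markers 1 was higher in the Nullscript-labelled channel, with sums of 1001 to 1267 with the Scriptaid label and 1108 to 1276 with the Nullscript label. Within replicates, the macrophage sum was higher and the red blood cell and adrenal sums were lower with the Scriptaid label in all 3 replicates, although their ranges overlapped between the channels. The ranges of the kidney, endothelial and neuronal sums did not overlap. No marker was at or below background. Their part in the ratios of the clock genes was not tested.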

How the data were processed

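Each of the 6 scanner files holds 1 array with 2 channels. The intensity of each spot and its local background were deposited by the authors as read by Agilent Feature Extraction 9.1.3.1, per the file headers. The deposited log10 ratios run as Cy5 over Cy3 in the scanner files and as labelled Scriptaid over labelled Nullscript in the value table. The value table differed from the scanner ratios by at most 4.82e-06 once the sign of the 3 arrays with Scriptaid in Cy3 was turned. Column medians of the value table were -0.00959 to -0.00136 and no further centring was found.

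From these, limma 3.58.1 under R 4.3.3 was used for normexp correction (offset 50) of mean intensities and for loess within each array. Control spots had no weight in the loess, and spots with an outlier mark were left out. Spots of a probe were averaged, then the 2 dye-swapped arrays of a replicate. A probe entered the fit when at least 3 of the 6 arrays showed it well above background for one of the drugs and 2 or more replicates had values, which left 39392 of 41174 probes. lmFit and eBayes tested the replicates' mean log2 ratio against 0, with Benjamini-Hochberg adjustment over all probes. A gene is called by its brightest probe. Levels are log2 intensities after loess and Aquantile. The labels state that both arrays of a number are the same biological replicate, and deviations of these arrays correlated at 0.61, 0.13 and 0.01 in replicates 1, 2 and 3. The members and lists were chosen with earlier results of these data known. All members are named, and of the further list each gene that passed with an absolute log2 ratio of at least 0.5, with Nr1d1, Nr1d2, Rora, Nfil3, Bhlhe40 and Npas2. Bhlhe41 was added after its value was seen. A gene of the further list that meets this rule is counted but not reported here.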

Additional observations from a re-analysis of the deposited data

How the results depend on the processing

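The 10 clock genes were recomputed under 18 alternatives: other background corrections, offsets and normalisations, the deposited ratios, other filters, other treatments of outlier and saturated spots and of multiple probes, all 6 arrays with the replicate as a block, the slide as a term, each replicate left out and each dye orientation alone. Between 6 and 8 genes passed, always with Dbp as the one gene higher in the Scriptaid-labelled channel. Arntl, Cry2, Hlf, Tef and Dbp passed under all 18. Not all of these are separate checks. All member probes passed the background filter, and none was marked or saturated. The alternatives for dim, marked or saturated spots therefore left the ratios unchanged and could move only the p-values. The fit over genes by their brightest probe left them unchanged as well. The deposited ratios repeat the processed signals of the scanner software, which were another alternative. Per1 lost its call with Scriptaid labelled in Cy3 alone (-0.27) and Per2 gained one with the mean of its probes (-0.35), and Cry1 lost its call without replicate 3. Leaving out 1 replicate gave ratios of -0.61 to -0.39 for Cry1, 11 to 16 calls in the further list and 11645 to 16380 calls over all probes. Among single probes, Clock A_52_P161365 turned to -0.17 with median centring, under which the dim second probe of Cry2 (-0.20) and A_52_P173309 of Tef (-0.31) also passed, and the cause was not tested. The second Cry1 probe passed without replicate 3 (-0.25). With all 6 arrays and the replicate as a block, 7 clock genes, 20 genes of the further list and 18835 probes passed, and this changed no call of the 10 genes. All 19 probes were above background on all arrays, and the number of replicates limits their precision.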

Other observations

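Several pairs of related clock genes had different ratios. The pairs were picked after their values were seen, and the differences are those of the log2 ratios within replicates, with no test. Bhlhe40 lay above Bhlhe41 by 0.84 ± 0.07 (SD, n = 3). Nr1d1 lay below Nr1d2, with a difference of -0.54 ± 0.12. Cry1 and Cry2, both higher in the Nullscript-labelled channel, differed by 0.38 ± 0.40, which is within the spread between replicates.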
